A study of Mus musculus with 6 samples.

Results

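Integrins are cell surface receptors, each a pair of an alpha and a beta subunit, that bind matrix proteins or counter-receptors outside the cell. On the inside, talin binds the beta subunit and, with vinculin, alpha-actinin and filamin, ties it to actin, while adaptors and kinases such as paxillin, integrin-linked kinase and focal adhesion kinase gather at the same site, the focal adhesion. In adipose tissue these genes are expressed by adipocytes, stromal cells, vessel walls and leukocytes, and the leukocyte subunits are used as markers of immune cells.

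The genes described here are the integrin subunits and a set of focal adhesion genes on a mouse array, chosen by name: every gene called Itga or Itgb with its subunit letter or number, and Tln1, Tln2, Vcl, Pxn, Zyx, Ilk, Parva, Ptk2, Actn1, Actn4, Flna and Bcar1. The rule found 37 genes, 25 integrin subunits and 12 others, with 83 probes, among 27962 gene names and 41174 probes in all. The tissue was abdominal white adipose tissue (WAT) of female C57/BL6 mice at 30 wk of age, either hNAG-1 transgenic mice, which carry the human NAG-1 gene (the secreted factor also called GDF15), or wild-type (WT) mice. The study's methods name a single transgenic line for this experiment, so line and transgene cannot be told apart. Each of the 6 arrays, 3 per genotype, received Cy3-labelled RNA pooled from 2 mice, and 6 mice of each genotype were used. The pools were of different mice, and all p-values reflect the spread of 3 pools against 3 pools, for which an exact two-sided permutation test cannot give a p below 0.1.

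Levels are given as relative signals: the processed signal of a probe divided by the 75th percentile of the signal on its array, which makes 1 the level of that percentile. The 75th percentile lay between 628.8 and 858.2 on arrays of hNAG-1 mice, against 912.6 to 969.6 on those of WT mice, and 71.2% to 82.0% of spots on each array were well above background. The adipocyte markers were measured in all pools (8 of 8 genes), as the tissue label states, while the probe for mouse Gdf15 does not check the human transgene. The WT arrays and hNAG-1 replicate 1 were hybridised on 1 slide, whereas the other hNAG-1 arrays (replicates 2 and 3) were on a slide with no WT array. Each gene was read from its brightest probe and compared on the log2 scale with limma over 21259 genes measured well above background on at least 3 arrays. No gene passed an adjusted p of 0.05 (0% of those tested), with a smallest adjusted p of 0.169, whereas 1785 genes were higher and 865 lower at an unadjusted p under 0.05 and 131 passed the adjusted threshold with trended and robust variances. Every comparison that follows therefore rests on unadjusted p-values, spread and overlap.

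Of the 37 genes, 36 could be tested. The exception was Itga2, the alpha subunit of a collagen receptor of platelets and epithelia, whose brightest probe was not well above background on any of the 6 arrays. Most of the 36 had a lower mean in hNAG-1 WAT: 25 (69.4%) had a log2 fold change below 0, against 41.1% of all genes tested, and the median was -0.19 against 0.063 for all genes. At an unadjusted p under 0.05, 10 of the 36 were lower (27.8%) and 1 was higher (2.78%), where the background over all genes was 4.07% lower and 8.4% higher. In 13 (36.1%) every hNAG-1 array was below every WT array, against 6.56% of all genes, and in 1 (2.78%) every hNAG-1 array was above every WT array, against 13.6%. The tissue is a mixture of cells, and fewer cells of a type and less RNA per cell cannot be told apart in any of these values.

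**Figure D1:**
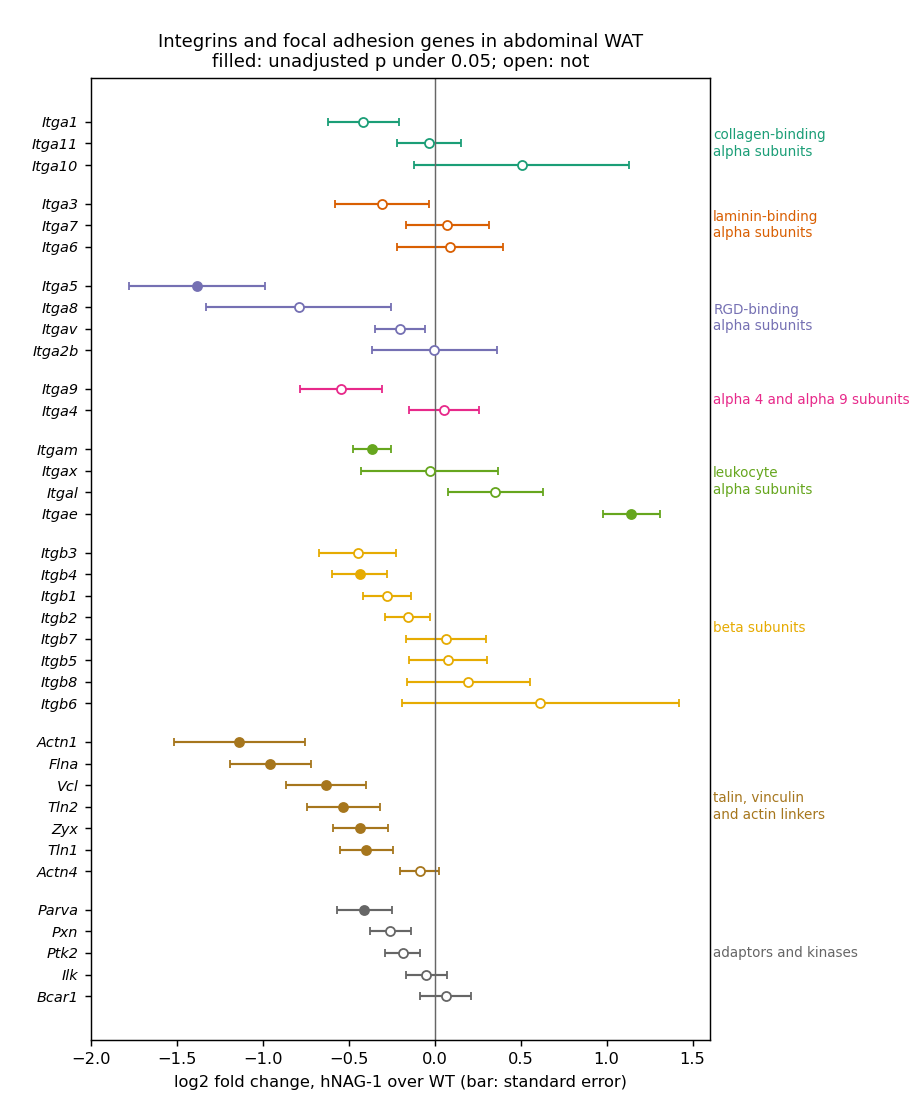
Log2 fold change of hNAG-1 over WT for the 36 genes tested, grouped by role (bars are standard errors from limma, n = 3 arrays per genotype; filled points have an unadjusted p under 0.05, open points do not). All 7 talin, vinculin and actin linker genes lie below 0, whereas the integrin subunits fall on both sides, from -1.38 for Itga5 to 1.14 for Itgae.

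By role, 7 of the 10 lower genes belonged to the cytoplasmic side of the adhesion. Of the 12 genes that are not integrins, 11 had a log2 fold change below 0, 7 were lower at an unadjusted p under 0.05 and none was higher, with a median of -0.40. Of the 24 integrin subunits tested, 14 were below 0, 3 were lower and 1 was higher at that threshold, with a median of -0.031. Over all genes tested, 41.1% were below 0, and 4.07% were lower and 8.4% higher at that threshold. The gap between the medians of the 12 genes and of the integrin subunits depended on the processing. With quantile normalization they were -0.46 for the 12 genes and -0.066 for the integrin subunits. With slide as a fixed block they were -0.31 for the 12 genes and -0.25 for the integrin subunits. Their order was reversed with normexp background correction, which estimates the background of each array anew. There they were -0.23 for the 12 genes and -0.30 for the integrin subunits. After subtraction of the all-gene median these normexp values were -0.033 for the 12 genes and -0.10 for the integrin subunits. Whether these 2 groups differ was not tested.

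**Figure D2:**
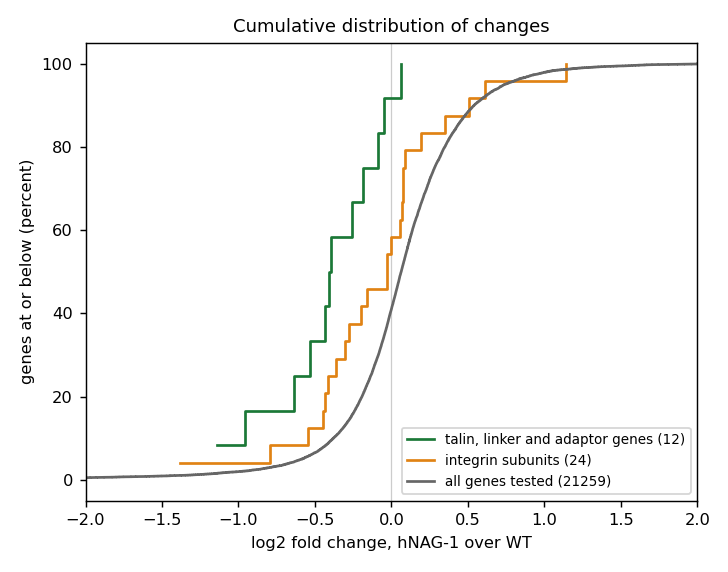
Cumulative share of genes (vertical axis, percent) at or below each log2 fold change of hNAG-1 over WT (horizontal axis) for the 12 talin, linker and adaptor genes, the 24 integrin subunits and all 21259 genes tested; a few genes of the last lie outside the plotted range. The curve of the 12 genes reaches 0 with 11 of them below it, the integrin curve crosses 0 close to its middle (14 of 24 below), and 41.1% of all genes are below 0.

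Itga5, the alpha subunit of the fibronectin receptor and 1 of the genes the study names, was the lowest of the family by fold change. Its relative signal was 0.241, 0.251 and 0.273 on the hNAG-1 arrays, against 0.782, 1.05 and 0.358 on the WT arrays. The hNAG-1 pools lay close together and the WT pools were spread, with WT replicate 3 the nearest to the hNAG-1 arrays but still above all of them. The log2 fold change was -1.38 (standard error 0.398, unadjusted p = 0.0139, adjusted p = 0.291 in limma). On the slide that held both genotypes, where hNAG-1 replicate 1 stands alone against the 3 WT arrays, it was -1.46 (unadjusted p = 0.0922). The gene has 1 probe on the array, at 103333409 to 103333468 of chromosome 15 in the mm7 build of the array design.

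The talins are the proteins that bind integrin tails and switch the receptors to their active state. Tln1, also named by the study and the form of most cells outside muscle and brain, had relative signals of 6.02, 5.28 and 5.61 on the hNAG-1 arrays, against 6.90, 8.97 and 6.59 on the WT arrays. The genotypes did not overlap, and the log2 fold change was -0.40 (standard error 0.156, unadjusted p = 0.0445, adjusted p = 0.392 in limma). Its dimmer probes moved the same way, at -0.52 and -0.51. Tln2, the second talin, stood at 5.09, 7.19 and 6.68 on the hNAG-1 arrays and at 8.31, 7.79 and 11.4 on the WT arrays. Here hNAG-1 replicate 1 was the lowest pool and WT replicate 3 the highest, and the log2 fold change was -0.53 (standard error 0.211, unadjusted p = 0.0468). Of the dimmer Tln2 probes, 1 was at -0.30 and the dimmest at 0.41 with a standard error of 0.428.

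Vinculin, encoded by Vcl, binds talin once talin is stretched and reinforces the link to actin. Vcl had relative signals of 4.86, 3.28 and 4.13 on the hNAG-1 arrays, against 5.37, 8.20 and 5.59 on the WT arrays. All hNAG-1 pools were below all WT pools, though hNAG-1 replicate 1 came close to WT replicate 1, and the log2 fold change was -0.63 (standard error 0.231, unadjusted p = 0.0348). A dimmer Vcl probe gave -0.80 (unadjusted p = 0.015 in the same limma model over probes).

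Actn1, an alpha-actinin that cross-links actin filaments, had relative signals of 0.303, 0.274 and 0.308 on the hNAG-1 arrays, against 0.701, 1.05 and 0.368 on the WT arrays. As for Itga5, the hNAG-1 pools were tight and WT replicate 3 was far below the other WT pools. The log2 fold change was -1.14 (standard error 0.381, unadjusted p = 0.0255, adjusted p = 0.342 in limma). Actn4, the other non-muscle alpha-actinin, was at -0.088 (standard error 0.112), with overlapping genotypes.

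Flna, or filamin A, an actin cross-linker that also binds integrin tails, gave relative signals of 49.0, 53.7 and 67.5 on the hNAG-1 arrays, against 109.9, 141.3 and 83.6 on the WT arrays. No pool of hNAG-1 mice reached the lowest WT pool. The log2 fold change was -0.96 (standard error 0.234, unadjusted p = 0.00697, adjusted p = 0.252 in limma). Within the slide that held both genotypes, where hNAG-1 replicate 1 stands alone, it was -1.16. Of the other Flna probes that could be tested, 1 was at -1.27 (unadjusted p = 0.0176) and another at -0.28 (unadjusted p = 0.344).

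Zyx, or zyxin, an actin-associated protein of mature adhesions, had relative signals of 25.3, 21.6 and 23.5 on the hNAG-1 arrays, against 34.9, 34.8 and 26.0 on the WT arrays. The pools did not overlap, WT replicate 3 again being the WT pool nearest to the hNAG-1 range, and the log2 fold change was -0.43 (standard error 0.16, unadjusted p = 0.0362). Of the 7 linker genes, Actn4 was thus the only one above an unadjusted p of 0.05, and the median log2 fold change of the 7 was -0.53.

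**Figure D3:**
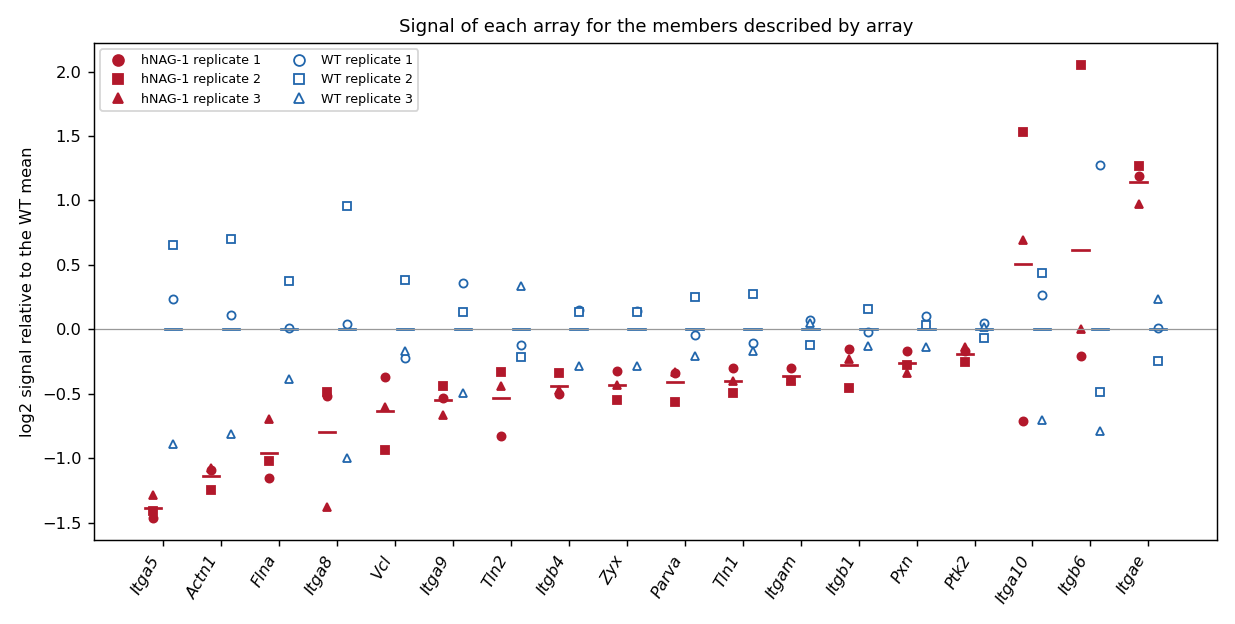
Signal of each array, as log2 difference from the WT mean, for the 18 genes described by array (filled red, hNAG-1; open blue, WT; symbols give the replicate, n = 3 per genotype, and short lines the means). Genes are ordered by fold change, and the genotypes do not overlap in 13 genes lower in hNAG-1 and in Itgae, which is higher; among these 13, WT replicate 3 is the lowest WT array for Itga5, Actn1, Flna, Itgb4, Zyx, Parva, Tln1, Itgb1 and Pxn.

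Among the adaptors and kinases the differences were smaller. Parva, the parvin that binds integrin-linked kinase and actin, had relative signals of 2.69, 2.30 and 2.71 on the hNAG-1 arrays, against 3.30, 4.05 and 2.95 on the WT arrays. The log2 fold change was -0.41 (standard error 0.159, unadjusted p = 0.0432), and its second probe gave -0.38. Pxn, the scaffold paxillin, stood at 1.45, 1.35 and 1.29 on the hNAG-1 arrays and at 1.75, 1.66 and 1.48 on the WT arrays, a log2 fold change of -0.26 (standard error 0.119, unadjusted p = 0.0731). Ptk2, focal adhesion kinase, stood at 0.967, 0.915 and 0.988 on the hNAG-1 arrays and at 1.13, 1.04 and 1.10 on the WT arrays, a log2 fold change of -0.19 (standard error 0.103, unadjusted p = 0.122). For both genes the pools of the genotypes did not overlap although the p missed 0.05. The dimmer Ptk2 probes were at -0.10 and -0.32, and those of Pxn at -0.18 and 0.63, the last from a probe well above background on 4 of 6 arrays with a standard error of 0.594. Ilk, integrin-linked kinase, at -0.049 (standard error 0.121), and Bcar1, the substrate p130Cas, at 0.063 (standard error 0.148), overlapped between genotypes.

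The beta subunits split evenly, with 4 of 8 above and 4 below 0. Itgb1, the partner of most matrix-binding alpha subunits, had relative signals of 3.86, 3.14 and 3.66 on the hNAG-1 arrays, against 4.23, 4.79 and 3.93 on the WT arrays. The pools did not overlap, by a small margin between hNAG-1 replicate 1 and WT replicate 3, and the log2 fold change was -0.28 (standard error 0.139, unadjusted p = 0.0925). Its second probe gave -0.26, and another, well above background on 4 of 6 arrays, 0.17 (standard error 0.53). Itgb4, the laminin receptor subunit of epithelial hemidesmosomes, also found in endothelium and Schwann cells, was at 0.859, 0.965 and 0.878 on the hNAG-1 arrays and at 1.35, 1.34 and 0.998 on the WT arrays. Its log2 fold change was -0.44 (standard error 0.158, unadjusted p = 0.0339), and a second probe that overlaps the first gave -0.48.

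Itgb3, which pairs with the alpha subunits of the vitronectin receptor and of the platelet fibrinogen receptor, gave a log2 fold change of -0.45 (standard error 0.225, unadjusted p = 0.0941), and the pools overlapped on this probe. On its dimmer probe the pools did not overlap, with 0.3996, 0.477 and 0.526 on the hNAG-1 arrays and 0.771, 0.689 and 0.535 on the WT arrays, a difference of -0.50 (unadjusted p = 0.0369 in limma over probes). Itgb2, the common beta subunit of leukocytes, was at -0.16 (standard error 0.129). Itgb5, Itgb7 and Itgb8 lay between 0.067 and 0.19. Itgb6, an epithelial subunit, was at 0.61 with a standard error of 0.807: its relative signal was 0.0179, 0.0857 and 0.0207 on the hNAG-1 arrays, against 0.0501, 0.0148 and 0.0120 on the WT arrays. Only hNAG-1 replicate 2 and WT replicate 1 stood out, on a probe well above background on 2 of the 3 WT arrays, and a second probe gave 0.33 (standard error 0.668). Skeletal muscle markers were highest on the same pair of arrays, with summed relative signals of 34.7, 234.2 and 51.6 on the hNAG-1 arrays and 154.4, 75.4 and 34.0 on the WT arrays, and exocrine pancreas genes stood out on WT replicate 2 (18.5, against 3.46 to 4.28 on the others). The part of these tissues in the members' values was not tested.

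For the matrix-binding alpha subunits other than Itga5, the brightest probe did not separate the genotypes. Itga8, the nephronectin receptor subunit of mesenchymal and smooth muscle cells, had relative signals of 0.247, 0.252 and 0.136 on the hNAG-1 arrays, against 0.363, 0.685 and 0.177 on the WT arrays. WT replicate 3 lay within the hNAG-1 range, and the log2 fold change of -0.79 had a standard error of 0.536 (unadjusted p = 0.191). A neighbouring probe gave -0.85, and a dimmer one that spans exons 0.98 (standard error 0.489). Itga9, which binds tenascin and osteopontin, was at 0.136, 0.145 and 0.124 on the hNAG-1 arrays and at 0.253, 0.216 and 0.139 on the WT arrays. Again WT replicate 3 fell within the hNAG-1 range, and the log2 fold change was -0.55 (standard error 0.24, unadjusted p = 0.0644). Itga10, a collagen receptor subunit of cartilage, was at 0.0544, 0.258 and 0.144 on the hNAG-1 arrays and at 0.107, 0.121 and 0.0548 on the WT arrays, spread over both genotypes, and its fold change on the log2 scale was 0.51 (standard error 0.626). The remaining collagen and laminin receptor subunits were Itga1 at -0.41, Itga3 at -0.31, Itga11 at -0.033, Itga7 at 0.073 and Itga6 at 0.089. Itgav, the vitronectin receptor subunit, was at -0.20, Itga2b, the platelet fibrinogen receptor subunit, at -0.0026 and Itga4, which binds the vascular counter-receptor Vcam1, at 0.054. On the brightest probe all 8 overlapped between genotypes, with unadjusted p-values from 0.0909 upwards. Itga1, a collagen receptor subunit, had 3 dimmer probes, at -0.50 (unadjusted p = 0.023 in limma over probes), -0.38 (unadjusted p = 0.021) and -0.44 (unadjusted p = 0.0809). On the first of these the relative signal was 0.169, 0.124 and 0.178 on the hNAG-1 arrays, against 0.215, 0.222 and 0.221 on the WT arrays, and on the second it was 0.384, 0.368 and 0.395 on the hNAG-1 arrays, against 0.515, 0.539 and 0.443 on the WT arrays, so that the genotypes did not overlap on either.

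The leukocyte alpha subunits differed in direction. Itgae, known as CD103, pairs with Itgb7 on T cells of epithelia and on a subset of dendritic cells and binds E-cadherin. Its relative signal was 0.374, 0.395 and 0.323 on the hNAG-1 arrays, against 0.165, 0.138 and 0.194 on the WT arrays. Every hNAG-1 pool was well above every WT pool. The log2 fold change was 1.14 (standard error 0.166, unadjusted p = 0.000543, adjusted p = 0.176 in limma), that is 2.21-fold. On the slide that held both genotypes, where hNAG-1 replicate 1 stands alone, it was 1.19. A second, dimmer Itgae probe from another part of the transcript gave 1.29 (standard error 0.157, unadjusted p = 0.000197). With normexp background correction, however, the value for Itgae was 0.35 (unadjusted p = 0.478).

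The Itgae probes are shown because they are the only evidence for the single member that was higher, and because each spans an intron in the mm7 build, so that they read spliced RNA. The first lies at 73227177 to 73228635 and the second at 73213308 to 73214293 of chromosome 11, both on the strand of ascending coordinates. Beside them stand the intron-spanning probes of Actn1, at 78131463 to 78131899 of chromosome 12, and Flna, at 69610624 to 69611457 of chromosome X, both in descending direction. The sequences are those of the array design, 5′ to 3′, 60 bases each.
Itgae, brighter probe: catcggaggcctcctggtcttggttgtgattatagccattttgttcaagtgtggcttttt
Itgae, dimmer probe: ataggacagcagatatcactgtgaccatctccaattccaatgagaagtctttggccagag
Actn1: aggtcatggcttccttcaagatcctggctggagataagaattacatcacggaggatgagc
Flna, dimmer probe: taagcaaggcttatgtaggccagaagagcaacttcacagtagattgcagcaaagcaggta

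Itgam, known as CD11b, the alpha subunit of macrophages and neutrophils, had relative signals of 0.408, 0.381 and 0.383 on the hNAG-1 arrays, against 0.529, 0.462 and 0.519 on the WT arrays. The pools did not overlap, and the log2 fold change was -0.37 (standard error 0.111, unadjusted p = 0.0172, adjusted p = 0.309 in limma), with -0.25 from its dimmer probe. Itgax, known as CD11c, was at -0.029 (standard error 0.398) and Itgal, the alpha subunit of LFA-1, at 0.35 (standard error 0.278), both with overlapping pools.

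Over all genes tested, 58.9% were above 0 and 41.1% below. At an unadjusted p under 0.05, 8.4% were higher and 4.07% lower. Of the markers of leukocytes, the T cell list had 7 of 7 genes above 0 in hNAG-1 WAT. This list had a median of 0.47 and no gene at an unadjusted p under 0.05. Its summed relative signal was 0.802, 1.81 and 0.766 on the hNAG-1 arrays, against 0.839, 0.642 and 0.651 on the WT arrays. The T cell sum was highest on hNAG-1 replicate 2. The B cell list had 5 of 5 genes above 0 and none at an unadjusted p under 0.05, with a median of 0.47 and sums of 2.02, 3.76 and 2.08 on the hNAG-1 arrays, against 1.31, 2.52 and 1.57 on the WT arrays. Of 5 neutrophil genes tested, 2 were above and 3 below 0, with a median of -0.10. Among these S100a9 was higher (1.21, unadjusted p = 0.0458) and Retnlg lower (-0.42, unadjusted p = 0.0132), and the sums were 0.903, 1.504 and 0.554 on the hNAG-1 arrays, against 0.669, 0.509 and 0.632 on the WT arrays. The macrophage list had 6 of 8 genes below 0, a median of -0.18 and 1 gene lower at an unadjusted p under 0.05 (Cd68, -0.44, unadjusted p = 0.0177), and its summed relative signal was 125.6 to 131.3 on the hNAG-1 arrays and 116 to 151.5 on the WT arrays. The part of any of these cell types in the values of Itgae and Itgam was not tested.

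**Figure D4:**
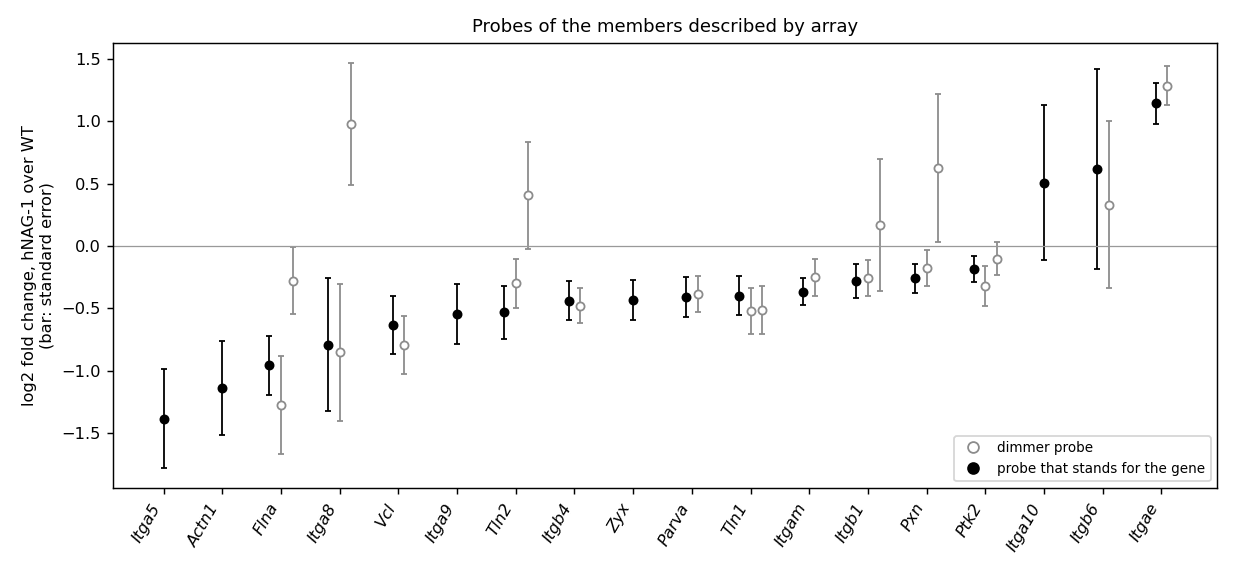
Log2 fold change of hNAG-1 over WT for every tested probe of the 18 genes described by array (bars are standard errors from limma; filled points are the brightest probe, which stands for the gene, and open points the dimmer ones). Both Itgae probes lie above 1 and all Tln1, Vcl, Parva, Itgb4 and Itgam probes lie below 0, whereas Itga8, Tln2, Itgb1 and Pxn each have a dim probe above 0.

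Of the 37 genes, 23 had several tested probes, and in 16 of these all probes had the same sign. In the other 7 they did not.

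Smooth muscle markers were lower in hNAG-1 pools and on WT replicate 3, a pattern that some members shared and others did not. All 7 genes of that list were below 0, with a median of -1.44, and 2 (Acta2 and Smtn) were lower at an unadjusted p under 0.05. Their summed relative signal was 72.0, 58.7 and 91.8 on the hNAG-1 arrays, against 327.8, 403.5 and 60.2 on the WT arrays, so that WT replicate 3 lay within the hNAG-1 range. The same array was the WT pool nearest to hNAG-1 for Itga5, Actn1, Flna, Zyx, Tln1, Parva, Itgb4, Itgb1 and Pxn. It lay within the hNAG-1 range for Itga8 and Itga9. For Tln2, by contrast, it was the highest of the 6 arrays. The lowest WT array was replicate 1 for Vcl and replicate 2 for Itgam and Ptk2. Set against WT replicate 3 alone, a comparison with no test that was chosen after seeing the data, the hNAG-1 mean was lower in 24 of the 36 members (66.7%), with a median log2 difference of -0.14, against 40.1% of all genes and a median of 0.083. Among the 12 genes that are not integrins it was lower in 10 (median -0.20), and among the 24 integrin subunits in 14 (median -0.079). The 13 members whose hNAG-1 arrays were all below the WT arrays, 9 of them not integrins, lie below WT replicate 3 by definition. These 13 are among the 24, and the 9 are among the 10, so the counts were largely fixed in advance. They cannot be set against the share of all genes. In the fit of all 6 arrays, 41.1% of all genes were below 0 and 58.9% above. At an unadjusted p under 0.05, 4.07% were lower and 8.4% higher. In that fit fibroblast markers were below 0 in 6 of 7 genes (median -0.32, 3 lower at an unadjusted p under 0.05). Of these 3, Col1a1 and Col1a2 also stand on the list of integrin ligands given below. Endothelial markers were below 0 in 6 of 8 (median -0.17, 1 lower). Adipocyte markers were above 0 in 8 of 8 (median 0.27, 2 higher). The part of any of these cell types in the values of the adhesion genes was not tested.

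**Figure D5:**
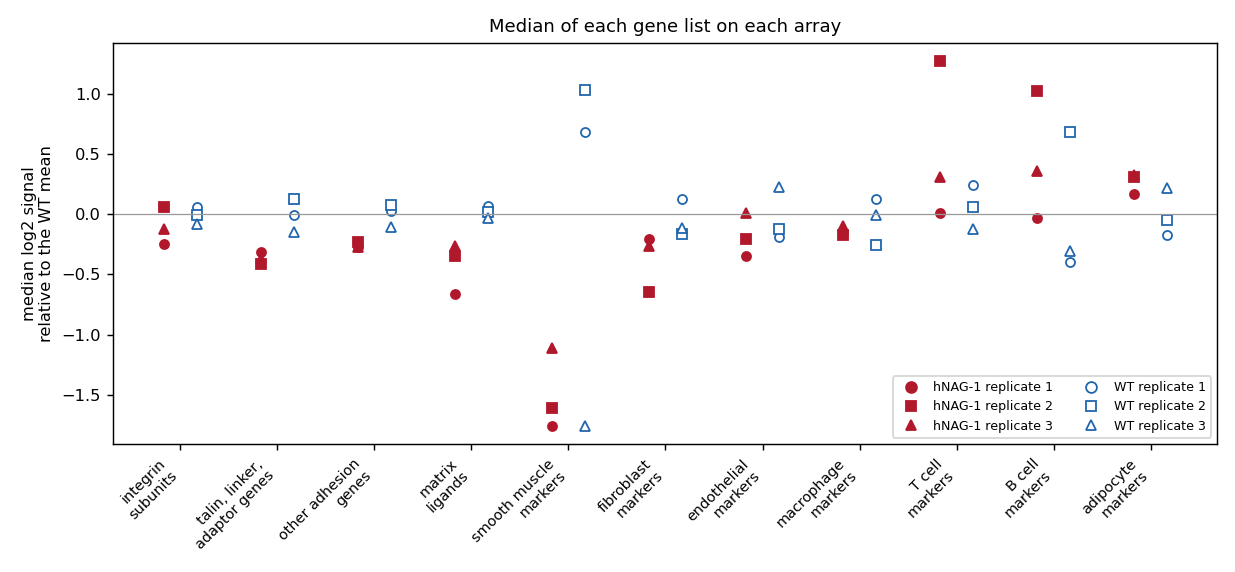
Median log2 signal of each gene list by array, as difference from the WT mean (filled red, hNAG-1; open blue, WT; symbols give the replicate). The hNAG-1 arrays are below all WT arrays for the talin, linker and adaptor genes, the other adhesion genes and the matrix ligands. They are also below all WT arrays for the fibroblast markers. The smooth muscle markers are low on all hNAG-1 arrays and on WT replicate 3. The list labelled matrix ligands also holds cell surface counter-receptors and Tgfb1, and it shares Col1a1 and Col1a2 with the fibroblast markers.

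Other genes of the adhesion pathway were listed with earlier results of these data known, so they are no independent check on the members. Their values are given only for the fit without a slide block and without normexp correction. Of 44 further adhesion genes listed, 42 were tested, with a median of -0.23. Of these, 31 were below 0, against 41.1% of all genes. At an unadjusted p under 0.05, 7 were lower and none higher, against 4.07% lower and 8.4% higher over all genes. The 4 with the smallest p were Nedd9, a scaffold related to Bcar1, at -0.91 (unadjusted p = 0.0108), Lims2, a partner of integrin-linked kinase, at -0.65 (unadjusted p = 0.0126), Src, a tyrosine kinase that acts with focal adhesion kinase, at -0.66 (unadjusted p = 0.0128), and Tgfb1i1, or Hic-5, a relative of paxillin, at -0.92 (unadjusted p = 0.0251). Fermt1, a kindlin, lay at background on every array, and Fermt3 was not matched by name.

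Ligands of the integrins, most of them matrix proteins, were listed in the same way, and their values are from the same fit only. The list also holds the cell surface counter-receptors Vcam1, Icam1, Icam2, Madcam1 and Cdh1 and the cytokine Tgfb1. These entries lay between -0.27 and 0.22. All 30 listed were tested, and the median was -0.41. Of the 30, 26 were below 0, against 41.1% of all genes. At an unadjusted p under 0.05, 10 were lower and none higher, against 4.07% lower and 8.4% higher over all genes. Fn1, or fibronectin, the ligand of the receptor that holds Itga5, had relative signals of 5.19, 4.52 and 4.88 on the hNAG-1 arrays, against 9.44, 9.66 and 6.68 on the WT arrays, a log2 fold change of -0.80 (standard error 0.178, unadjusted p = 0.00438, adjusted p = 0.232 in limma). The collagen VI genes Col6a1 and Col6a2 were at -0.89 and -0.81, and Ctgf, a matricellular protein that binds integrins, at -1.11.

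The upstream sequence of 3 members is given because they are the genes named by the study (Itga5 and Tln1) and the linker whose window holds a CArG box, the site bound by serum response factor (Vcl). Sequences are those of RefSeq on GRCm38.p6, read 5′ to 3′ on the strand of the gene and ending just before its start, which gave an entry for 26 of the 37 members. Capitals mark the CArG box, the GC box (GGGCGG) and the TEAD motif (GGAATG), each searched on both strands with overlapping matches kept. The windows are chr15:103366792-103367041 on the minus strand for Itga5, chr4:43562584-43562833 on the minus strand for Tln1 and chr14:20929148-20929382 on the plus strand for Vcl.
Itga5: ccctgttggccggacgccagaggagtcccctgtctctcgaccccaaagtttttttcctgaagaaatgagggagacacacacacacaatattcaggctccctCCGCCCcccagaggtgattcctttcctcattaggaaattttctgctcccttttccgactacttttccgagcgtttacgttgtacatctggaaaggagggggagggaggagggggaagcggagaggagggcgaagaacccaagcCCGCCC
Tln1: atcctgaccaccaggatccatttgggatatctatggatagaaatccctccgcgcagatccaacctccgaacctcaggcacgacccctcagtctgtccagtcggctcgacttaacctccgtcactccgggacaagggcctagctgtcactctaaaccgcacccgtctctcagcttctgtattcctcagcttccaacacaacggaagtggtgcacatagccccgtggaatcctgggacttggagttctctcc
Vcl: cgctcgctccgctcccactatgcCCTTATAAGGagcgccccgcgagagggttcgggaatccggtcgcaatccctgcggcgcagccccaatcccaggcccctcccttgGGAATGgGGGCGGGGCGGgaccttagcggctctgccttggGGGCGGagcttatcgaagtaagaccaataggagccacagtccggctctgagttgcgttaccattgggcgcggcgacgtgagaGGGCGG

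The window printed for Vcl stops at the start of the gene in the RefSeq gene table and has 235 bases. Searched over the full 250 bases before the start given in the table, a CArG box was found in 1.47% of the 32851 windows of the table and in 2 of 26 members (Vcl and Itgb6), a GC box in 32.7% of all windows and in 13 of 26 members, and a TEAD motif in 12.6% of all windows and in 5 of 26 members. Of the 8 members with a window whose arrays were all lower in hNAG-1 mice, 7 held a GC box, and Tln1 held none of the motifs. These matches describe letters in a window. The percentages count windows, whereas a member was counted once if any of its windows matched. As some genes have several windows, the counts of members cannot be set directly against those percentages.

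The slide and the background correction both moved these counts. With slide as a fixed block, 3 of 36 members were lower at an unadjusted p under 0.05 (Flna, Tln2 and Itga1, the last not among the 10), against 3.79% of all genes in that fit. On the shared slide alone 30 of the 36 members were below 0, with a median of -0.25 against -0.029 for all genes. There Tln2 was at -0.83, Vcl at -0.37 and Itgb1 at -0.16. With normexp correction 3 of 36 members remained lower (Flna, Itga5 and Actn1), against 0.532% of all genes in that fit, where the median of all genes shifted to -0.20 and Tln1, Itgb1, Pxn and Ptk2 were at or just above that median. Relative to that median the 7 linker genes had a median of -0.15 and the 5 adaptors and kinases one of 0.069 with normexp correction, against -0.60 and -0.25 without it.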

How the data were processed

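Total RNA of abdominal WAT, pooled from 2 mice per array, was labelled with Cy3 and hybridised to single-colour Agilent arrays. The authors deposited spot intensity as scanner output of Agilent Feature Extraction, version 9.5 by the submitters' processing notes, and a table of processed signal intensity whose 45018 rows equal the scanner values, background-subtracted and not normalized between arrays. The study's methods name an Affymetrix array, but the files come from an Agilent design. The number of arrays limits the precision.

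Control spots (1639) and spots flagged as outliers were dropped, replicate spots averaged, and the log2 signal was centred on the 75th percentile of its array. Gene names and positions (mm7) are those of the array design. Each gene was read from its brightest probe, kept if well above background on at least 3 arrays. The genotypes were tested, two-sided, by limma 3.58.1 (lmFit, eBayes; R 4.3.3), and p-values were adjusted by Benjamini-Hochberg over all genes. The fit was tested on simulated data.

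Members with a log2 fold change of at least 0.5 in size, an unadjusted p under 0.05 or arrays that did not overlap, and Itga5 and Tln1, are given by array. Of other lists, at most the 4 genes of smallest unadjusted p under 0.05 are named. The members, the lists and the alternatives were chosen with earlier results of these data known.

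The alternatives were quantile normalization, median centring, normexp background correction with an offset of 50, no or a stricter filter on dim probes, averaging all probes of a gene, naming through accession, flagged spots kept, the slide as a block (fixed or random) and the shared slide alone, a replicate block, trended and robust variances, and each array left out in turn. Sequences were read with Python, and figures drawn with matplotlib.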

Additional observations from a re-analysis of the deposited data

How the results depend on the processing

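The median log2 fold change of the members stayed below 0 in all 20 settings, from -0.31 to -0.13, and below that of all genes in each. The count of members lower at an unadjusted p under 0.05, 10 as reported, was 5 with median centring, 3 with normexp background correction, 3 in the fit with the slide as fixed block and 2 on the shared slide alone, of 36 in each, where the shares of all genes lower in these settings were 2.54%, 0.532%, 3.79% and 3.49%, and the count of members higher, 1 as reported, was 0 with normexp correction. Set against the median of all genes, the members' median was -0.068 with normexp correction and -0.26 as reported. The cause of these shifts was not tested. Leaving out each array in turn gave 3 to 13 members lower and 1 to 2 higher, with a median of -0.31 to -0.16. The highest of these counts came without WT replicate 3 (13 lower, 2 higher, median -0.31), and the lowest without hNAG-1 replicate 2 or 3 (3 lower in each). Without hNAG-1 replicate 1 it was 5, and without WT replicate 1 or 2 it was 4. In the fits with an array left out, 2.5% to 5.88% of all genes were lower and 4.52% to 11.2% higher. The highest share lower, 5.88%, also came without WT replicate 3. Over all genes, 0 passed the adjusted threshold in limma, against 131 with trended and robust variances, where Itgae passed (adjusted p = 0.0409), and 2650 at an unadjusted p under 0.05. Of the members, Flna stayed under an unadjusted p of 0.05 in 20 of 20 settings, Itgae in 19, Itga5 in 18, Actn1 and Itgam in 13, Vcl, Tln2 and Itgb4 in 12, Zyx in 11, Parva in 9 and Tln1 in 8. The settings draw on the same 6 arrays and many return the same fold change, so these counts are not independent. Itga5 missed 0.05 with slide as a fixed block (unadjusted p = 0.0636 in limma) and on the shared slide alone. The adjusted p of Itgae lay between 0.0409 and 0.9 over the 20 settings. Itga10 and Itgb6 changed sign: Itga10 was at -0.015 with normexp correction, -0.71 in both slide settings, and -0.0076 to 1.12 with an array left out, and Itgb6 was at -0.38 with normexp correction, -0.21 in both slide settings and -0.10 to 1.25 with an array left out. In both, the value below 0 came without hNAG-1 replicate 2. Pxn was at 0.063 as the mean of its probes. On the shared slide, hNAG-1 replicate 1 is a single array, assumed to vary like the WT arrays.

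The labels do not state whether the replicate numbers pair the pools. Deviations of pools with the same number correlated at 0.096, 0.51 and 0.094, and 1 of 3 pools correlated best with its own number. Each deviation is taken from its genotype's own mean of 3 pools and is not independent of the others. These correlations therefore cannot decide whether the pools were paired. With the number as a replicate block, 9 members were lower and 1 higher, 6 of the 9 shared with the 10 reported. In that fit 4.37% of all genes were lower and 7.04% higher.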

Other observations

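Some members stood high on WT replicate 3, the WT pool in which smooth muscle markers were low; they were chosen after their values were seen. Itga6, a laminin receptor subunit, had relative signals of 8.21, 9.42 and 8.56 on the hNAG-1 arrays, against 6.64, 6.25 and 13.2 on the WT arrays. Itgb5, a vitronectin receptor subunit, was at 30.0, 34.6 and 39.5 on the hNAG-1 arrays and at 30.1, 26.5 and 43.9 on the WT arrays. Itga7, a laminin receptor subunit of muscle, was at 2.43, 2.74 and 2.99 on the hNAG-1 arrays and at 1.90, 2.60 and 3.48 on the WT arrays. In all 3 genes WT replicate 3 was the highest of the 6 arrays, and the genotypes overlapped.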
